A study of Mus musculus with 6 samples.

Results

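*Asns*, *Gpt2*, *Got1*, *Got2*, *Aldh18a1*, *Pycr1*, *Glud1*, *Bcat1* and *Bcat2* encode enzymes that make, interconvert or break down asparagine, alanine, aspartate, glutamate, proline and the branched-chain amino acids. They were chosen by symbol for these roles, so that targets of the transcription factor ATF4 stand beside genes that are not known for it. All 9 were found among the 55367 genes of the deposited table, of which 26402 had values. RNA-seq had been done on leukemia stem cells (LSCs), the self-renewing cells of acute myeloid leukemia (AML), sorted from the bone marrow of diseased mice to ask how loss of the mechanosensitive ion channel PIEZO1 alters their gene expression. There were 3 libraries of WT LSCs and 3 of *Piezo1 cKO* LSCs. WT stands for *Piezo1 fl/fl* mice and *Piezo1 cKO* for *Mx1-cre; Piezo1 fl/fl* mice, on a C57BL/6J background and 8 to 10 weeks of age, and both groups were given poly(I:C), which induces the interferon-responsive *Mx1* promoter that drives Cre. Lineage-negative bone marrow cells of either genotype had received an MLL-AF9 and YFP retrovirus and had been transplanted into irradiated recipients. *Mx1-cre* acts in many interferon-responsive cells, not in LSCs alone, and WT LSCs carry neither Cre nor a recombined allele. No source used here says whether the libraries of a group came from separate mice, so the p-values measure the spread between these libraries, which may be technical.

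Nonessential amino acids are built from glutamine, glutamate and intermediates of central carbon metabolism. Transaminases pass amino groups between glutamate and the carbon skeletons of alanine, aspartate and the branched-chain amino acids, asparagine synthetase adds an amide taken from glutamine, and proline is made from glutamate through pyrroline-5-carboxylate (P5C). Several of these genes are known targets of ATF4, which is translated when amino acids run short or the endoplasmic reticulum is stressed. Leukemic blasts with low asparagine synthetase depend on asparagine from outside, which is the basis of treatment with asparaginase, and the cytosolic branched-chain transaminase has been linked to the maintenance of myeloid leukemia stem cells.

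The deposited values are on a log2 scale, normalized between libraries and pulled towards each gene's mean, so that differences are smaller than in the reads, and the fewer reads a gene has the smaller they are. The pull could be undone, and recovered reads per library ranged from 14112122 to 15483613. Reads divided by the library's size factor are called normalized reads here. Changes are given as *Piezo1 cKO* minus WT, tested with limma over all 16746 genes with a mean value of at least 1, and DEGs are genes whose log2 value differs by more than 1 at an adjusted p below 0.05. *Piezo1* itself had 101, 92.8 and 109 normalized reads in the 3 WT libraries and 36.6, 56.5 and 45.8 in the 3 *Piezo1 cKO* libraries. The groups did not overlap, as the labels require, and 45.9% of the WT level was left. Its deposited values fell by 0.29 on the log2 scale (SE 0.04, limma adjusted p = 5.80e-06). The values cover the whole gene, so reads of a deleted exon were not told apart from the rest.

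Expression of the enzyme genes was lower in *Piezo1 cKO* LSCs. At an adjusted p under 0.05 (limma), 7 of the 9 were lower, against 31.4% of all genes tested. The count of higher genes was 0, against 31.6% of all genes, and it was also 0 at an unadjusted p under 0.05 and on the recovered reads. *Asns* and *Gpt2* were lower DEGs, that is 2 of 9, against 0.561% of all genes, while 0.257% of all genes were higher DEGs. On the recovered reads 3 of the 9 were lower DEGs, against 12.2% of all genes (12.7% higher DEGs), the third being *Aldh18a1*. In 8 of the 9 genes every *Piezo1 cKO* library lay below every WT library, which held for 33.1% of all genes tested. The median log2 fold change of the 9 was -0.26, beside 0.0006 over all genes. With each library shifted to the same median, 6 of the 9 were lower, and the split of all called genes moved from 5258 lower and 5298 higher to 4214 lower and 6450 higher.

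**Figure D1:**
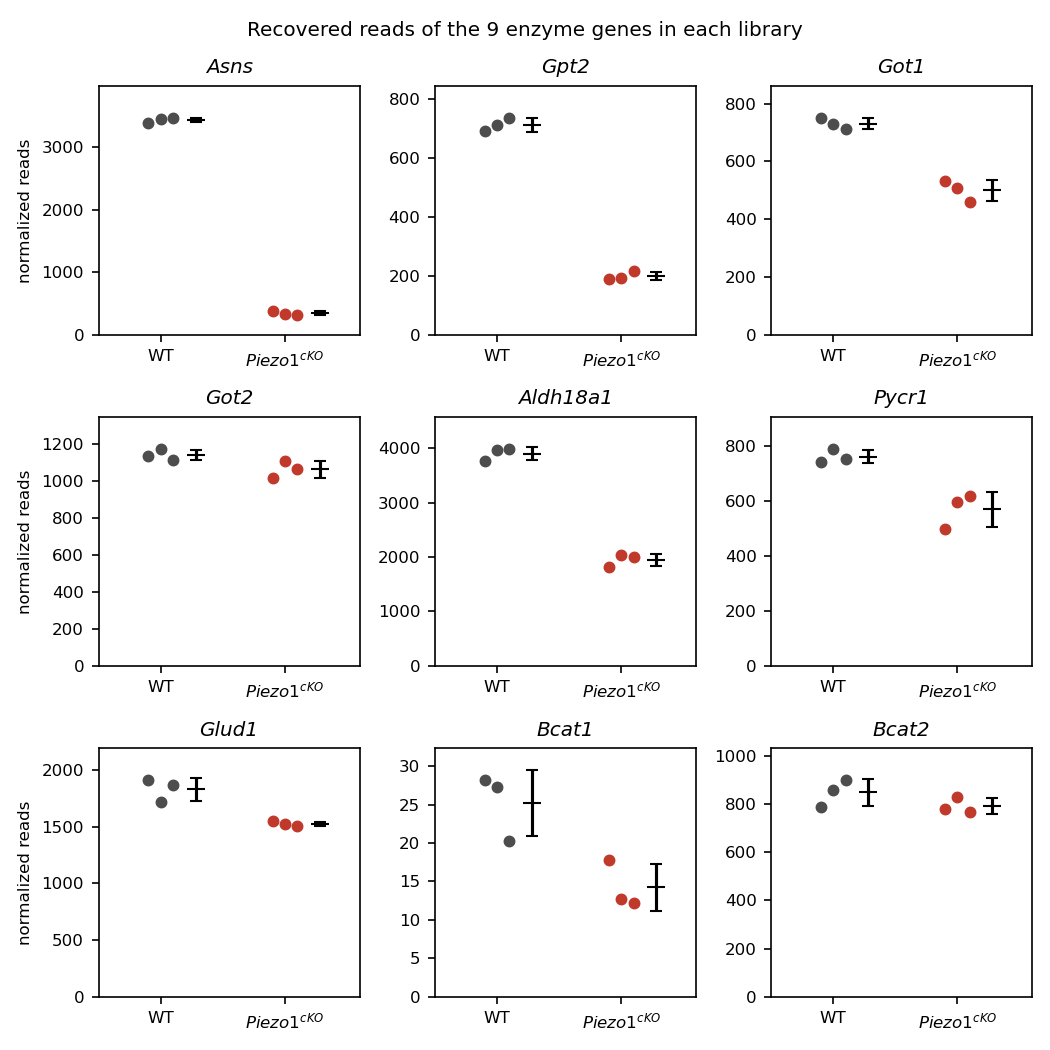
Normalized reads (recovered reads divided by the size factor, linear axes from 0) of the 9 enzyme genes in WT LSCs (grey) and *Piezo1 cKO* LSCs (red). Each point is 1 library, and the bar beside the points is the mean ± SD (n = 3). *Asns* falls from about 3430 to about 346, and only *Bcat2* has overlapping groups.

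*Asns* (chromosome 6 of GRCm38, 7675169 to 7693254, minus strand) encodes asparagine synthetase, which turns aspartate into asparagine with the amide of glutamine. Its normalized reads were 3391, 3442 and 3457 in the WT libraries and 384, 338 and 314 in the *Piezo1 cKO* libraries. All WT libraries were high and close together, all *Piezo1 cKO* libraries were low, and the gap between the groups was many times the spread within either. The mean fell from 3430 ± 34.4 to 346 ± 35.6 normalized reads (SD, n = 3), to 10.1% of the WT level, a 9.92-fold difference. Deposited values averaged 11.32 ± 0.01 in WT and 9.08 ± 0.08 in *Piezo1 cKO* LSCs (SD, n = 3), and the log2 fold change was -2.24 (SE 0.04, limma adjusted p = 3.75e-19). *Asns* had the change of rank 7 from the lowest among the 16746 genes on the deposited values, and of rank 587 among 17352 genes on the recovered reads. Among the 9 enzyme genes it showed the largest change on both scales.

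*Gpt2* (chromosome 8, 85492576 to 85527560, plus strand) encodes the mitochondrial alanine transaminase, which makes alanine and 2-oxoglutarate from pyruvate and glutamate. The WT libraries had 690, 711 and 734 normalized reads and the *Piezo1 cKO* libraries 188, 193 and 216. Both groups were tight and did not overlap. The level left was 27.9% of WT, and the deposited log2 fold change was -1.04 (SE 0.04, limma adjusted p = 3.69e-14), beside -1.84 on the recovered reads (SE 0.08). *Gpt2* thus lay just past the DEG threshold on the deposited scale, and with each library left out in turn it stayed between -1.06 and -1.02.

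Of the aspartate transaminase genes, *Got1* passed the test and *Got2* did not. *Got1* (chromosome 19, 43499752 to 43524605, minus strand) encodes the cytosolic enzyme, which supplies aspartate in the cytosol or uses it to make oxaloacetate. Its normalized reads were 749, 731 and 712 in the WT libraries and 534, 507 and 461 in the *Piezo1 cKO* libraries. The groups did not overlap, 68.5% of the WT level was left, and the log2 fold change was -0.33 (SE 0.04, limma adjusted p = 3.68e-07). *Got2* (chromosome 8, 95864134 to 95888547, minus strand) encodes the mitochondrial form, which works with the cytosolic one in the malate-aspartate shuttle. It had 1138, 1173 and 1115 normalized reads in the WT libraries and 1020, 1109 and 1064 in the *Piezo1 cKO* libraries. Its lowest WT library was close to its highest *Piezo1 cKO* library, and its log2 fold change of -0.07 (SE 0.03) did not pass the test (limma adjusted p = 0.0750). Without *Piezo1 cKO* replicate 2 it was -0.09 and passed (limma adjusted p = 0.0446).

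Both steps from glutamate to proline that these genes cover were lower. *Aldh18a1* (chromosome 19, 40550257 to 40588463, minus strand) encodes P5C synthase, the mitochondrial enzyme of the first step. It had 3762, 3976 and 3982 normalized reads in the WT libraries and 1824, 2032 and 1999 in the *Piezo1 cKO* libraries. Every *Piezo1 cKO* library stood near the middle of the range from 0 to the WT level, and the mean went from 3907 ± 125 to 1952 ± 112 (SD, n = 3), to 49.96% of WT. The log2 fold change was -0.71 on the deposited scale (SE 0.03, limma adjusted p = 5.36e-13) and -1.001 on the recovered reads (SE 0.04). The last value lies at the DEG threshold, so the call on reads hangs on small differences. It was lost on library totals (-0.98) and, in fits chosen after seeing the data, without WT replicate 2 (-0.99), WT replicate 3 (-0.99) or *Piezo1 cKO* replicate 1 (-0.95).

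*Pycr1* (chromosome 11, 120635712 to 120643769, minus strand) encodes the mitochondrial P5C reductase of the last step. The WT libraries had 743, 789 and 755 normalized reads and the *Piezo1 cKO* libraries 498, 597 and 619. *Piezo1 cKO* replicate 1 was the lowest library and the spread was wider in this group, but the groups did not overlap. The level left was 74.9% of WT, a log2 fold change of -0.26 (SE 0.04, limma adjusted p = 3.75e-05). The first step of proline synthesis therefore fell by more than the last on both scales, where *Pycr1* had a log2 fold change of -0.42 on the recovered reads.

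*Glud1* (chromosome 14, 34310727 to 34345265, plus strand) encodes glutamate dehydrogenase, which links glutamate to 2-oxoglutarate in mitochondria. Its normalized reads were 1907, 1716 and 1869 in the WT libraries and 1545, 1521 and 1509 in the *Piezo1 cKO* libraries. WT replicate 2 was the lowest of its group and still above all *Piezo1 cKO* libraries. The decrease was small, to 83.3% of WT (log2 fold change -0.18, SE 0.03, limma adjusted p = 7.80e-05). The recovered values of *Glud1* lay up to 0.45 reads from a whole number, so its last digit is uncertain.

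*Bcat1* (chromosome 6, 144993835 to 145076184, minus strand) encodes the cytosolic branched-chain transaminase, and *Bcat2* (chromosome 7, 45570153 to 45589711, plus strand) the mitochondrial form. *Bcat1* was barely expressed, with 29, 27 and 21 recovered reads in the WT libraries and 17, 13 and 12 in the *Piezo1 cKO* libraries. The groups did not overlap, but the lowest WT and highest *Piezo1 cKO* library were a few reads apart. The mean fell from 25.2 ± 4.35 to 14.2 ± 3.08 normalized reads (SD, n = 3), and the deposited log2 fold change was -0.08 (SE 0.03, limma adjusted p = 0.0230), beside -0.81 on the recovered reads (SE 0.29, limma adjusted p = 0.0230). The call lay near the threshold. With log2 fold changes from -0.07 to -0.05, it was lost without WT replicate 1 (limma adjusted p = 0.0803), WT replicate 2 (0.0688), *Piezo1 cKO* replicate 2 (0.0662) or *Piezo1 cKO* replicate 3 (0.0676), and with equal library medians (0.109).

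*Bcat2* had 789, 861 and 899 normalized reads in the WT libraries and 778, 829 and 766 in the *Piezo1 cKO* libraries. The groups overlapped, since *Piezo1 cKO* replicate 2 lay above WT replicate 1. Its log2 fold change of -0.06 (SE 0.04) did not pass the test (limma adjusted p = 0.131). Without WT replicate 1 it was -0.10 and passed (limma adjusted p = 0.0345).

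**Figure D2:**
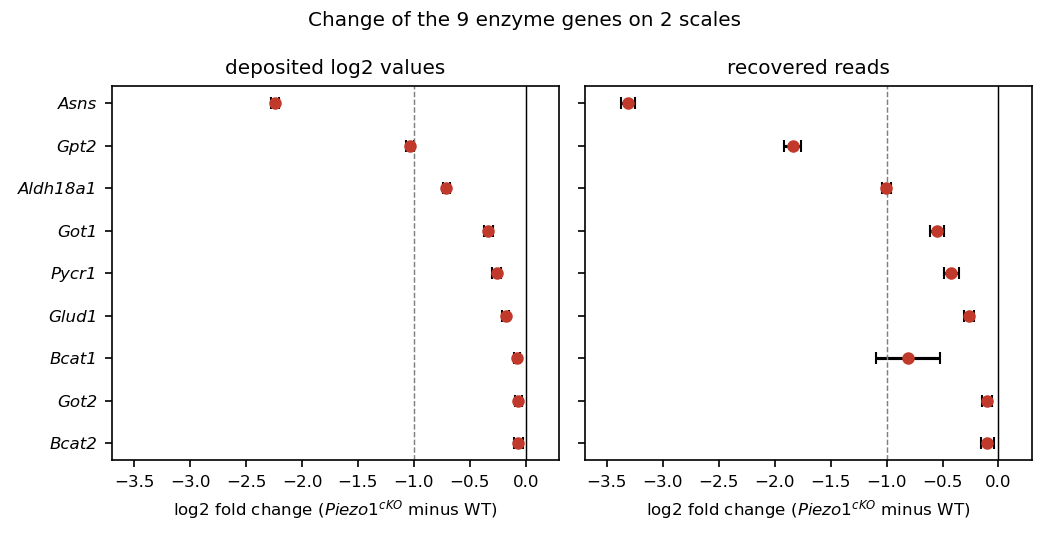
Log2 fold change (*Piezo1 cKO* minus WT, points) with its standard error (bars) of the 9 enzyme genes, on the deposited log2 values (left) and the recovered reads (right). The dashed line marks -1, the solid line 0. *Asns* and *Gpt2* lie below -1 on both scales, and *Aldh18a1* sits at the line on the recovered reads.

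Reads of near-identical copies or overlapping genes could be counted in either gene or in neither. The library protocol does not mark strand, so antisense partners cannot be told apart from the gene. *Got2* has the processed pseudogene *Got2-ps1* (99.1% identity over 1293 bases) and *Gm10874* (98.8% over 1637 bases), *Glud1* has *Glud-ps* (97.6% over 656 bases) and *Gpt2* has *Gm5049* (92.2% over 1328 bases). None of these 4 copies had more than 5 recovered reads in any library. *Bcat2* shares 622 exon bases with the antisense gene *0610005C13Rik*, which had 7, 7 and 6 recovered reads in the WT libraries and 0 in each *Piezo1 cKO* library. *Bcat1* shares 337 exon bases with the antisense gene *Gm26666*, with at most 1 recovered read in any library. *Got2* shares 434 exon bases with *Gm45760* on the opposite strand, with at most 2 recovered reads in any library. These reads are few beside those of the enzyme genes, except that *Bcat1* itself has few. Reads counted in neither gene would not show in these values.

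To compare levels between genes, recovered reads were divided by the merged exon length in kb and by the library total, as RPKM. In WT LSCs, *Asns* had the highest level of the 9, at 84.1 ± 1.03 (SD, n = 3), followed by *Aldh18a1* at 64.4 ± 2.21 and *Glud1* at 29.2 ± 1.56. *Got1* (19.3 ± 0.46), *Got2* (15.9 ± 0.42), *Bcat2* (14.6 ± 0.99), *Pycr1* (13.0 ± 0.43) and *Gpt2* (8.46 ± 0.28) came next, and *Bcat1* was last at 0.181 ± 0.03. No neighbours in this order overlapped between their WT libraries. In *Piezo1 cKO* LSCs the order changed. *Aldh18a1* led at 32.6 ± 1.91 (SD, n = 3), before *Glud1* at 24.6 ± 0.27 and *Got2* at 15.0 ± 0.65. *Got2*, *Bcat2* (13.8 ± 0.58) and *Got1* (13.4 ± 0.97) overlapped with their neighbours, as did *Pycr1* (9.86 ± 1.12) and *Asns* (8.59 ± 0.87). *Asns* thus went from rank 1 to rank 7 of the 9, above *Gpt2* (2.39 ± 0.18) and *Bcat1* (0.104 ± 0.02).

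Pairs of enzymes that catalyse the same reaction were compared by the difference of their log2 values within each library, over 4 pairs that had values, of which 3 are given here. The exact permutation test, two-sided, cannot give a p under 0.10 with 3 libraries against 3. *Got1* minus *Got2* was -0.70, -0.75 and -0.73 in the WT libraries and -0.90, -1.02 and -1.06 in the *Piezo1 cKO* libraries. The groups did not overlap, and the difference was lower by 0.27 (exact p = 0.10, 0.133 after Benjamini-Hochberg adjustment over the 4 pairs). On the recovered reads this difference moved by -0.45 (exact p = 0.10). *Gpt2* minus *Gpt*, its cytosolic counterpart, was 3.56, 3.5995 and 3.71 in the WT libraries and 2.48, 2.33 and 2.46 in the *Piezo1 cKO* libraries. This pair moved most, and was lower by 1.201 (exact p = 0.10, adjusted 0.133). On the recovered reads, of which *Gpt* had 28 to 79 per library, the pair moved by -2.67 (exact p = 0.10). *Bcat1* minus *Bcat2* overlapped between the groups and moved by -0.01 (exact p = 1), or by -0.71 on the recovered reads (exact p = 0.20), where the few reads of *Bcat1* limit it. Without WT replicate 1 or *Piezo1 cKO* replicate 2 its sign turned, to 0.03 and 0.02.

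The partner of *Gpt2* did not follow it down. *Gpt* rose, with 42, 38 and 28 recovered reads in the WT libraries and 45, 79 and 66 in the *Piezo1 cKO* libraries (log2 fold change 0.17, SE 0.04, limma adjusted p = 0.00233).

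*Asns*, *Gpt2*, *Aldh18a1* and *Pycr1* are well known as ATF4 targets. All 4 were lower (31.4% of all genes were), 2 of them as DEGs (0.561% of all genes), with log2 fold changes from -2.24 to -0.26 and a median of -0.87. Of the other 5, 3 were lower, with log2 fold changes from -0.33 to -0.06 and a median of -0.08. The ranges overlap, because *Got1* fell by more than *Pycr1*. On the recovered reads the medians were -1.42 and -0.26, and *Bcat1*, with its few reads, lay between *Aldh18a1* and *Got1*. This grouping was made with the values known and is a description.

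The factors around ATF4 were lower too. Of the 10 genes listed for ATF4 and its partners, 8 were lower and 1 was higher, beside 31.4% and 31.6% of all genes, with a median log2 fold change of -0.33. *Trib3*, a pseudokinase induced by ATF4, had 1549, 1565 and 1649 recovered reads in the WT libraries and 14, 12 and 26 in the *Piezo1 cKO* libraries (log2 fold change -3.17, SE 0.04, limma adjusted p = 3.67e-20). *Cebpb* (-2.37), *Ddit3* (-0.77) and *Cebpg* (-0.61), which encode bZIP partners of ATF4, were lower with limma adjusted p = 8.00e-20, 5.68e-12 and 4.47e-10. *Atf4* itself, chosen after its values were seen, fell less, by 0.44 (SE 0.03, limma adjusted p = 1.27e-09). *Asns*, *Gpt2* and *Aldh18a1* had larger decreases than the mRNA of *Atf4* on both scales, as *Bcat1* did on the recovered reads alone (-0.81 beside -0.68 for *Atf4*).

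**Figure D3:**
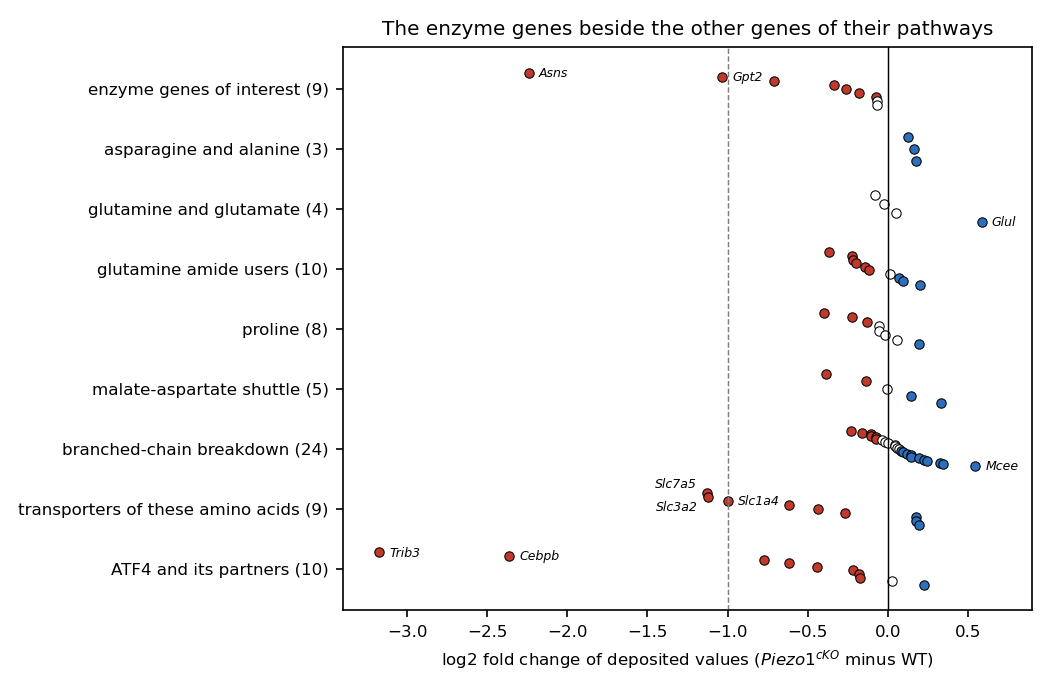
Log2 fold change of the deposited values (*Piezo1 cKO* minus WT) of the 9 enzyme genes (top row) and of the tested genes of 8 lists around them, each point 1 gene. Red and blue mark genes lower and higher at a limma adjusted p under 0.05, white marks the others, the number of genes is in brackets, and the dashed line marks -1. The enzyme genes lie at or left of -0.06, whereas the lists for branched-chain breakdown and the malate-aspartate shuttle spread to both sides.

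The neighbours of these enzymes did not move as one group. Of 80 other genes in 8 lists, 73 were tested, of which 31 were lower and 25 higher (limma adjusted p under 0.05), beside 31.4% and 31.6% of all genes, with a median log2 fold change of -0.01. Without the transporters and the ATF4 list, 17 of 54 were lower and 21 higher. On the deposited scale 0 were DEGs, beside 0.561% lower and 0.257% higher DEGs among all genes. On the recovered reads 2 were lower DEGs and 1 a higher DEG, beside 12.2% and 12.7% of all genes.

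Around *Asns* and *Gpt2*, all 3 tested genes of asparagine and alanine metabolism were higher, as 31.6% of all genes were. *Asrgl1*, an asparaginase, had a log2 fold change of 0.13 (SE 0.03, limma adjusted p = 0.00282), and *Nit2*, an omega-amidase, of 0.18 (SE 0.04, limma adjusted p = 0.000641). *Aspg*, *Agxt* and *Agxt2* are listed at 0 in all libraries. Around *Glud1*, *Glul*, the glutamine synthetase, had 397, 384 and 406 recovered reads in the WT libraries and 742, 795 and 723 in the *Piezo1 cKO* libraries. It rose by 0.58 on the log2 scale (SE 0.03, limma adjusted p = 3.72e-11), while the mitochondrial glutamate carriers *Slc25a22* (-0.08, limma adjusted p = 0.0686) and *Slc25a18* (-0.02, limma adjusted p = 0.219) did not pass the test. *Slc25a22* passed without WT replicate 1 (-0.11, limma adjusted p = 0.0453), as did *Slc25a18* without WT replicate 3 (-0.04, limma adjusted p = 0.0418), though its sign turned on the recovered reads without WT replicate 2 (0.07). Among 10 genes whose products use the amide of glutamine, as *Asns* does, 6 were lower and 3 higher, beside 31.4% and 31.6% of all genes. *Gfpt2*, of the hexosamine pathway, had 17, 11 and 29 recovered reads in the WT libraries and 0 in each *Piezo1 cKO* library (log2 fold change -0.14, limma adjusted p = 6.64e-05).

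Around *Aldh18a1* and *Pycr1*, 8 of 10 proline and arginine genes were tested, of which 3 were lower and 1 higher, beside 31.4% and 31.6% of all genes. *Prodh*, chosen after its values were seen, encodes the first enzyme of proline breakdown and fell as well, by 0.40 (SE 0.04, limma adjusted p = 1.26e-07). *P4ha2* is listed at 0.

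Around *Got1* and *Got2*, 2 of the 5 genes listed for the malate-aspartate shuttle were lower and 2 higher, beside 31.4% and 31.6% of all genes. *Slc25a13* (-0.39) and *Mdh1* (-0.13) were lower with limma adjusted p = 8.11e-08 and 0.000243, and *Slc25a12* (0.33) and *Slc25a11* (0.15) were higher with limma adjusted p = 5.23e-09 and 0.000513. *Mdh2* had -0.01 (limma adjusted p = 0.773), and its sign turned with the scaling and without WT replicate 2.

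Downstream of *Bcat1* and *Bcat2*, the 24 genes of branched-chain breakdown were tested in full, of which 6 were lower and 11 higher, beside 31.4% and 31.6% of all genes, with a median of 0.06. *Mcee*, of the last steps to succinyl-CoA, had 259, 240 and 256 recovered reads in the WT libraries and 472, 515 and 483 in the *Piezo1 cKO* libraries (log2 fold change 0.55, SE 0.03, limma adjusted p = 1.60e-10). Genes of the branched-chain keto acid dehydrogenase, *Bckdha* (0.32, limma adjusted p = 5.88e-06) and *Bckdhb* (0.35, limma adjusted p = 2.27e-07), chosen after their values were seen, were higher too. Its other subunit genes *Dbt* (0.05, limma adjusted p = 0.357) and *Dld* (-0.03, limma adjusted p = 0.277), also chosen after their values were seen, did not pass the test, and its kinase gene *Bckdk*, chosen likewise, was lower (-0.07, limma adjusted p = 0.0111).

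Several transporters of these amino acids were lower, as *Asns* and *Gpt2* were. Of 9 tested, 6 were lower (31.4% of all genes were), 3 of them DEGs (0.561% of all genes were lower DEGs), and 3 were higher (31.6% of all genes were). *Slc7a5* and *Slc3a2*, which form the exchanger of large neutral amino acids, had log2 fold changes of -1.13 and -1.12 (limma adjusted p = 1.63e-14 and 2.32e-17). *Slc1a4*, a carrier of alanine, serine and cysteine, had 176, 183 and 192 recovered reads in the WT libraries and 8, 4 and 8 in the *Piezo1 cKO* libraries (log2 fold change -1.0003, limma adjusted p = 4.50e-14). Its DEG call on the deposited scale sits at the threshold and was lost with equal medians (-0.98). It was also lost without WT replicate 2 (-0.99), WT replicate 3 (-0.99) or *Piezo1 cKO* replicate 2 (-0.98). On the recovered reads the log2 fold change of *Slc1a4* was -4.71 (SE 0.32), far past the threshold. *Slc43a1*, a carrier of branched-chain amino acids, fell by 0.44 (limma adjusted p = 9.21e-09), and the glutamine carrier *Slc1a5*, chosen after its values were seen, by 0.62 (limma adjusted p = 9.50e-14).

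Because several members moved together, the promoters of the 9 genes (RefSeq, GRCm38.p6, 250 bases before to 50 after each start, 11 windows) were searched on both strands for TGATGNAA, letters of the composite element that ATF4 and C/EBP factors are known to bind. It was found in 3 of the 9 genes, namely *Asns*, *Pycr1* and *Got1*. This was 3 of their 11 windows, beside 3.97% of the 32851 promoter windows of that length. The pieces around the match are shown 5′ to 3′ on the strand of the gene, with the match in capitals, because they set the gene with the largest change beside genes with smaller ones. That of *Asns* (chr6:7693214-7693243, minus strand) lies before the RefSeq start and inside the first exon, a UTR, of a longer GENCODE transcript. Those of *Pycr1* (chr11:120643804-120643891, minus strand) and *Got1* (chr19:43524660-43524747, minus strand) lie upstream of the gene, and the *Got1* match reads in the reverse direction.
Asns: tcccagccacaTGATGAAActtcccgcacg
Pycr1: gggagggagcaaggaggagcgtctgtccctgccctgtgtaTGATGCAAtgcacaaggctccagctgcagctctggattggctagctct
Got1: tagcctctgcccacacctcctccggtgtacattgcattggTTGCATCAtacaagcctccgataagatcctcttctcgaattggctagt
The match starts 23 bases before the start in *Asns*, 103 in *Pycr1* and 102 in *Got1*. *Gpt2* and *Aldh18a1*, with the next largest changes, held no such letters in these windows. The E-box CACGTG was found in *Aldh18a1* alone (1 of the 11 windows), and in 7.15% of all windows. GCGTG, the core of the element that hypoxia-inducible factors bind, was found in 7 of the 9 genes (8 of the 11 windows), and in 32.4% of all windows. These matches describe the sequence, and binding was not measured.

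The genes whose pattern was most like that of a member were found by the Euclidean distance of centred deposited values over the 6 libraries. For *Asns* they were *Rps3a3* (distance 0.131), *Eif3b* (0.138) and *Cebpb* (0.204). For *Pycr1*, the member with the middle change, they were *Spi1* (0.0497), *Dpp9* (0.0546) and *Vav3* (0.0558), and for *Bcat2*, with the smallest change, *Clpp* (0.0251), *Gm13423* (0.0351) and *Aen* (0.0385).

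Genes that mark LSCs, of which *Kit*, *Cd34* and *Fcgr3* belong to the sorting gate and *Hoxa9*, *Hoxa10* and *Meis1* do not, had reads in both groups. *Kit* (0.31, limma adjusted p = 8.42e-09) and *Cd34* (0.46, limma adjusted p = 8.32e-12) were higher and *Meis1* lower (-0.13, limma adjusted p = 0.00278) in *Piezo1 cKO* LSCs, whereas *Fcgr3* (-0.02), *Hoxa9* (0.003) and *Hoxa10* (-0.01) did not pass the test, and their signs turned in other fits. Of the genes the gate should lack, *Cd8a* is listed at 0, *Cd3e*, *Cd4* and *Ly6g* had at most 2 recovered reads in any library, and *Ly6a* had 1, 1 and 0 against 10, 17 and 7. *Itgam* had 105, 89 and 111 recovered reads in the WT libraries and 207, 213 and 177 in the *Piezo1 cKO* libraries.

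Markers of other blood cells moved with the group, as the enzyme genes did. Beside the counts below, 31.4% of all genes were lower and 31.6% higher, and *Cpa3*, *Elane*, *Ngp*, *Camp*, *S100a8*, *S100a9*, *Mmp8* and *Adgre1* were chosen after their values were seen. In the neutrophil list, 7 of 8 tested genes were lower and 1 higher. Its summed normalized reads were 499034, 540090 and 527767 in the WT libraries and 253469, 275096 and 271425 in the *Piezo1 cKO* libraries. Most of them came from *Mpo*, which myeloid progenitors also make and whose mean went from 290116 to 157982. Nearly all the others came from *Elane* (229692 to 107783), so the sum says little about the remaining genes of the list. *Ly6g* had at most 1 read. The granule and late genes *Ngp*, *Camp*, *S100a8* and *S100a9* were the 4 lower DEGs of this list. *Mmp8*, also a granule gene, was the higher DEG (log2 fold change 1.82, limma adjusted p = 1.03e-17). Of all genes, 0.561% were lower and 0.257% higher DEGs. *S100a9* had 284, 252 and 265 recovered reads against 8, 6 and 4. In the mast cell and basophil list, 7 of 8 were higher, with sums of 4216, 4363 and 4424 against 12237, 12304 and 12210, led by *Prss34* over both groups and by *Cpa3* in *Piezo1 cKO* LSCs, where *Cpa3* went from 565 to 5003 normalized reads. In the B cell list, 4 of 4 tested were higher, with sums of 12205, 12562 and 12207 against 22726, 22617 and 22328, led by *Ighm*. In the macrophage and dendritic cell list, 6 of 7 were higher, with sums of 1239, 1310 and 1263 against 2400, 2244 and 2313, led by *Flt3*, which progenitors also make and which went from 648 to 1606, while *Adgre1* did not pass the test (0.02, limma adjusted p = 0.647) and *C1qa* is listed at 0. The T and NK cell list had sums of 15.5, 11.1 and 7.70 against 51.2, 56.5 and 66.1, led by *Klrb1c* (0 in each WT library, 32, 38 and 52 recovered reads in the others), with 1 of 3 lower and 2 higher. The erythroid list had sums of 97.0, 113 and 102 against 43.9, 41.9 and 31.5, led by *Klf1*, with 1 of 4 lower. Fewer cells of a type and less RNA per cell cannot be told apart in such bulk libraries, and the part of these shifts in the changes of the enzyme genes was not tested.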

How the data were processed

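Per the labels, polyA RNA of LSCs from 3 WT and 3 *Piezo1 cKO* samples was made into Smart-seq2 based, Tn5 fragmented paired-end libraries. The authors trimmed reads with fastp (0.20.1), mapped them to GRCm38 with HISAT2 (2.2.1), counted them with featureCounts (2.0.1) and normalized them with DESeq2 (1.28.1). The deposited values are log2 values of the form of a regularized log, a transform the sources used here do not name, from -1.97 to 18.06. They were used as they are, with neither a further log nor a pseudocount. Of the genes, 28965 are listed at 0 in all libraries.

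limma (3.58.1, R 4.3.3) was fitted with a trend and without covariates to the 16746 genes whose mean value reached 1, with Benjamini-Hochberg adjustment over all of them. The transform was undone by finding size factors and a shrinkage trend that gave whole reads. Among genes averaging 1 read or more, 92.9% of values came within 0.1 of whole, and 22.2% did with the shrinkage set 10% off. Below that mean the share was 26.6%, and those values were rounded. This step and the fits were tested on simulated data. Recovered reads of 17352 genes with at least 10 reads in total were fitted with limma-voom using the size factors. They numbered 15406265, 14745611 and 15483613 in the WT libraries and 14112122, 15094248 and 14456739 in the *Piezo1 cKO* libraries.

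Coordinates, exon lengths and overlaps came from GENCODE M21 (GRCm38), copies of at least 90% identity over at least 200 bases from BLAST (2.17.0), and promoters from RefSeq, where all 9 genes matched. Python (3.11.15) with numpy (2.4.6), scipy (1.17.1), pandas (2.3.3) and matplotlib (3.10.9) did the rest. For the isozyme pairs on reads 0.5 was added before the log2.

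The members and the lists were chosen with earlier results of these data known. The genes named were drawn, not all of them printed, from the 9 members, *Piezo1*, the isozyme partners, the gate genes, every gene of lists of up to 6 genes, of longer lists at most 5 past the DEG thresholds on either scale, and of marker lists the most abundant gene and those listed at 0. Other genes, marked in the text, were named after their values were seen. Alternatives were the filter, equal library medians, no trend, a replicate block, each library left out, and recovered reads with size factors, library totals or the block. Recovered reads with each library left out and the pair of *Slc25a12* and *Slc25a13* were added after seeing the data.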

Additional observations from a re-analysis of the deposited data

How the results depend on the processing

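The log2 fold changes of the 9 enzyme genes were negative in every fit run, and 164 of the alternatives kept the call. In 9 *Bcat1* lost its call, and in 6 *Got2* or *Bcat2* gained one. With 10 or more reads in total *Bcat1* could be tested on reads, but it has no value under a minimum mean of 5. All genes gave 4322 DEGs on the recovered reads, 4333 with library totals and 4364 with the replicate block, against 137 on the deposited values. Without WT replicates 1, 2 and 3 the reads gave 3871, 3901 and 3823, and without *Piezo1 cKO* replicates 1, 2 and 3 they gave 3932, 3943 and 3980, in fits added after seeing the data. The count of DEGs among the pathway genes was 5 on the deposited values (4 with equal medians and without WT replicate 2, WT replicate 3 or *Piezo1 cKO* replicate 2) and 11 on the recovered reads, with size factors, library totals or the block, and 10 to 12 with each library left out. The cause was not tested. The difference of *Bcat1* and *Bcat2* lay between -0.0547 and 0.0323 with each library left out. Sign changes of genes that did not pass the test were those of *Mdh2* (0.0154 with equal medians, 0.00890 with library totals, -0.0234 to 0.00252 with a library left out and -0.0316 to 0.00343 on reads), *Slc25a18* (-1.49 to 0.0714 on reads), *Hoxa9* (-0.0324 to 0.0384, with -0.0110 without WT replicate 1 and -0.000610 without WT replicate 2, and on reads -0.0154, -0.000611 and, without *Piezo1 cKO* replicate 3, -0.0446), *Hoxa10* (0.0105 with equal medians, -0.0244 to 0.00675, and up to 0.0117 on reads) and *Fcgr3* (0.00627 with equal medians), and the cause was not tested. The labels' replicate numbers do not pair the libraries, since deviations of same-numbered libraries correlated at 0.195, 0.161 and 0.0696. Each library correlated best with its own number, a hint from the data and not the design. With the replicate block, 8 of the 9 enzyme genes were lower, *Got2* being added (limma adjusted p = 0.0403), *Slc25a22* also passed (0.0247, and 0.0328 on reads), and all genes gave 137 DEGs. Depth limits *Bcat1*, whose 12 to 29 reads leave a wide error.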

Other observations

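The 9 enzyme genes together took 13601, 13304 and 14077 recovered reads in the WT libraries and 6499, 7323 and 6841 in the *Piezo1 cKO* libraries. Their share of the library was 0.0883%, 0.0902% and 0.0909% against 0.0461%, 0.0485% and 0.0473%. *Asns* alone made up 25.7%, 25.6% and 25.5% of these reads in the WT libraries and 5.66%, 4.74% and 4.52% in the *Piezo1 cKO* libraries.

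The aspartate-glutamate carriers *Slc25a12* and *Slc25a13*, which feed the shuttle that *Got1* and *Got2* run, moved in opposite directions, a pair chosen after its values were seen. *Slc25a12* minus *Slc25a13* was 1.95, 2.02 and 2.002 on the deposited log2 scale in the WT libraries and 2.64, 2.74 and 2.74 in the *Piezo1 cKO* libraries. The groups did not overlap, and the difference was higher by 0.72 in *Piezo1 cKO* LSCs (two-sided exact permutation p = 0.10, the smallest this design can give), or by 1.104 on the recovered reads.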
